A study of Mus musculus with 11 samples.

Results

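The 10 genes described here encode proteins of the presynaptic active zone and the Rab3 GTPases of the vesicles that dock there: Bsn, Pclo, Erc2, Rims1, Rims2, Unc13a, Unc13b, Rab3a, Rab3b and Rab3c. They were chosen by name, and all 10 were found among the 77179 Ensembl genes of the deposited table and passed the filter on low values. Each was matched to 1 Ensembl identifier: Bsn ENSMUSG00000032589, Pclo ENSMUSG00000061601, Erc2 ENSMUSG00000040640, Rims1 ENSMUSG00000041670, Rims2 ENSMUSG00000037386, Unc13a ENSMUSG00000034799, Unc13b ENSMUSG00000028456, Rab3a ENSMUSG00000031840, Rab3b ENSMUSG00000003411 and Rab3c ENSMUSG00000021700.

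The active zone is the patch of presynaptic membrane where synaptic vesicles dock, are primed and fuse. The giant scaffolds Bassoon and Piccolo and the ELKS protein CAST organise it, RIM proteins join the scaffold to calcium channels, vesicles and Munc13, and Munc13 proteins prime vesicles for fusion. Rab3 proteins sit on vesicles in their GTP-bound form and bind RIM and rabphilin. In forebrain these components are assembled while synapses form and mature over the first postnatal weeks.

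RNA came from cortex and hippocampus, processed jointly, of NEX-RiboTag mice. In these mice Cre under control of Neurod6 (NEX), a gene of forebrain excitatory neurons, turns on ribosomal protein Rpl10a fused to GFP. Ribosome-bound RNA (IP, pulled down with beads against GFP) was read at P7, P14 and P21 (days after birth 7, 14 and 21). Each age had 3 libraries, named biological replicates in the labels, all of genotype NEX-Cre;Rpl10aeGFP/eGFP. Whole-tissue RNA (input) was sequenced at P7 in 2 libraries, replicate 1 of genotype NEX-Cre;Rpl10aeGFP/eGFP and replicate 2 of genotype Rpl10aeGFP/eGFP, without Cre. The NEX-Cre parent line was on a C57BL/6J background, and every group carries the Rpl10aeGFP allele. No input was given for P14 or P21 in the samples used here, so changes with age could be followed only in the IP.

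Values are TPM, which are scaled for transcript length and to a fixed total per library. They keep no depth, so the precision of a value is shown only by the spread between libraries. Log2 changes were computed after adding 1 TPM, so those of low genes come out too small, and are given with the standard error of the limma fit. A gene was called at a limma adjusted p below 0.05 over 19008 genes. Replicate numbers were taken from the labels. The tagged gene Rpl10a (ENSMUSG00000037805) stood at 996 TPM in the input with Cre, at 487 TPM in the input without it, and between 2149 TPM (P21 IP replicate 2) and 3814 TPM in the IP libraries.

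Per transcript length, the 10 genes covered a wide range of levels in the IP. In P7 IP the order of the means was Rab3a (571 TPM), Rab3b (139 TPM), Erc2 (86.9 TPM), Unc13a (33.4 TPM), Rims1 (29.6 TPM), Rab3c (29.1 TPM), Rims2 (28.5 TPM), Bsn (13.1 TPM), Pclo (10.3 TPM) and Unc13b (9.01 TPM). The libraries of Unc13a, Rims1, Rab3c and Rims2 overlapped there, as did those of Bsn with Pclo and of Pclo with Unc13b. In P21 IP the order was Rab3a (884 TPM), Erc2 (98.4 TPM), Rims1 (88.8 TPM), Rab3c (52.3 TPM), Rims2 (46.7 TPM), Unc13a (44.2 TPM), Rab3b (38.2 TPM), Bsn (25.8 TPM), Pclo (10.2 TPM) and Unc13b (7.70 TPM). Erc2 overlapped with Rims1 at that age, and Rims2 with both Rab3c and Unc13a. Rab3b, second at P7, was therefore seventh at P21.

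**Figure D1:**
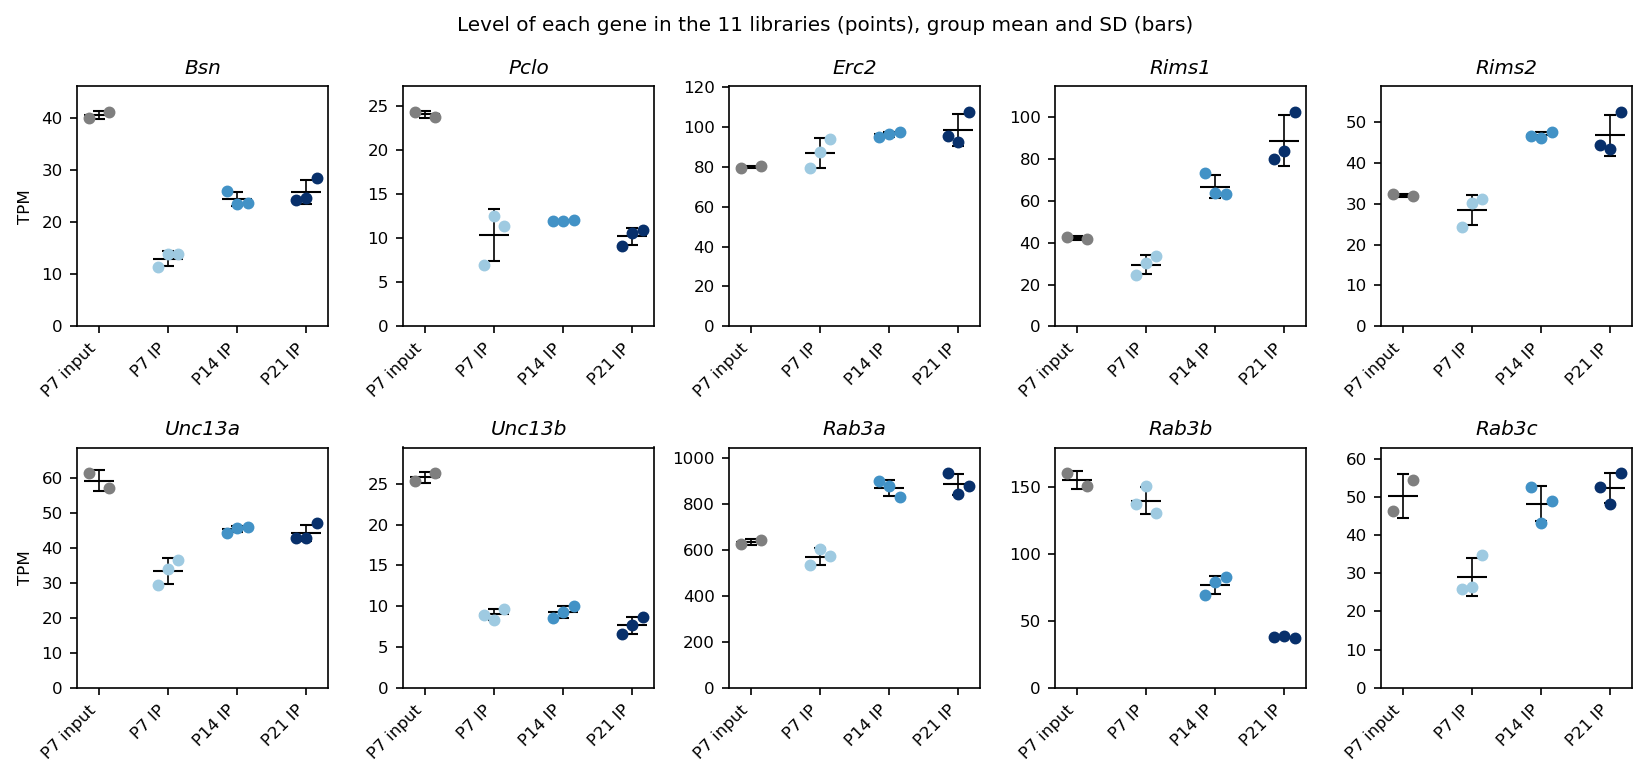
TPM (vertical axes, each from 0) of the 10 genes in P7 input, P7 IP, P14 IP and P21 IP. Points are the 11 libraries and bars the group mean and SD (n = 2 for input, n = 3 for each IP group). Rab3b steps down at each age from 139 to 76.8 to 38.2 TPM in IP, while Rims1 steps up from 29.6 to 66.9 to 88.8 TPM.

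Between P7 and P14 most of the 10 genes rose in the IP and 1 fell. Rims1, Bsn, Rab3c, Rims2, Rab3a and Unc13a were higher at P14, Rab3b was lower, and Pclo, Unc13b and Erc2 did not pass the test. These 6 higher genes and 1 lower gene compare with 26.7% of all tested genes called higher and 22.8% called lower, 49.5% either way. The median log2 change of the 10 genes was 0.52, against 0.03 over all genes tested. In bulk RNA of this kind, fewer cells of a type and less RNA per cell cannot be told apart.

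Between P14 and P21 most levels no longer differed beyond the test. Rims1 was higher and Rab3b lower, next to 8.53% of all tested genes called higher and 19.7% lower (28.3% either way). The median log2 change of the 10 genes was 0.01 against -0.08 over all genes. Over all genes 1621 were higher and 3749 lower; with median-of-ratios scaling 2744 were higher and 2269 lower, and with quantile normalisation 2290 and 2662, still more lower than higher. From P7 to P21, 7 of the 10 genes were called higher (27.3% of all genes) and 1, Rab3b, lower (32.6% of all genes, 59.9% either way), with a median of 0.52 against -0.04. The P14 libraries enter both weekly comparisons and the P7 and P21 libraries enter the whole interval, so these results are not independent of each other.

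**Figure D2:**
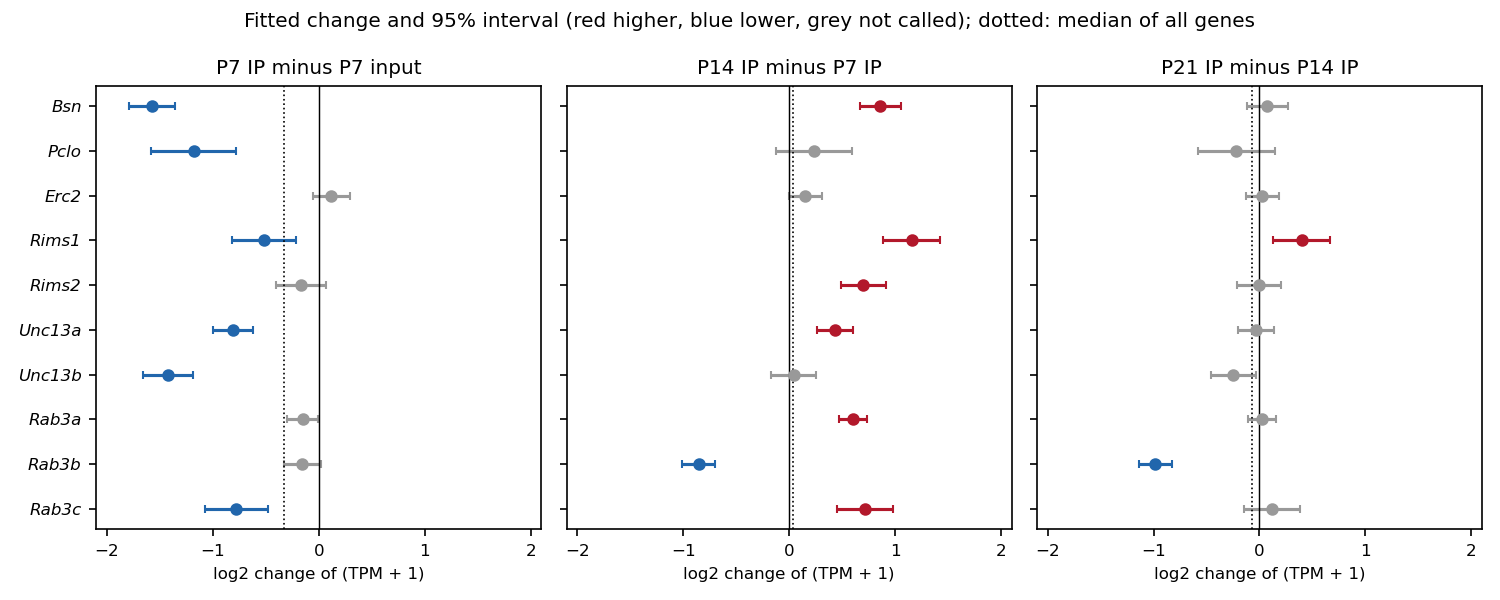
Fitted log2 change of (TPM + 1) with its 95% interval for the 10 genes in 3 comparisons; the dotted line is the median of all genes tested. In the middle panel 6 genes were called higher, and Rab3b, at -0.85, is the only gene left of 0. In the right panel Rims1 (0.40) and Rab3b (-0.99) were called.

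At P7 none of the 10 genes was called higher in IP than in input. IP and input differ both in the cells sampled and in the RNA read, ribosome-bound or whole-tissue. These differences cannot be told apart here. Bsn, Unc13b, Pclo, Unc13a, Rab3c and Rims1 were lower, and Rab3a, Rab3b, Rims2 and Erc2 did not pass (limma, 0 higher and 6 lower, and 0 higher and 7 lower at an unadjusted p under 0.05). Over all genes 18.6% were higher and 51.1% lower (69.8% either way), so a majority of lower calls was also the rule for all genes tested. The median log2 change of the 10 genes was -0.65 and that of all genes -0.33. Median-of-ratios scaling moved the median of all genes up by 0.35 and gave 4 higher and 5 lower genes among the 10. Over all genes it gave 6257 higher and 5802 lower. Quantile normalisation moved that median by 0.36 but gave 0 higher and 8 lower among the 10, with 6256 and 6025 over all genes. Rescaling without mitochondrial, haemoglobin and ribosomal protein genes moved the median by -0.10. Rab3a (-0.26), Rab3b (-0.26) and Rims2 (-0.27) then passed as lower. Without P7 IP replicate 2, Rab3a (-0.20, adjusted p = 0.0298) and Rab3b (-0.21, adjusted p = 0.0388) were also called lower.

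Bsn encodes Bassoon, a very large scaffold protein of the active zone. Its level was 40.1 and 41.3 TPM in the 2 input libraries and 11.4, 13.8 and 13.9 TPM in P7 IP. It was 26.0, 23.5 and 23.8 TPM in P14 IP and 24.3, 24.7 and 28.5 TPM in P21 IP. The input libraries were the highest and the P7 IP libraries the lowest, with no overlap between either and the later ages, while P14 and P21 overlapped. Bsn was 3.12-fold lower in P7 IP than in input by mean TPM, or -1.57 ± 0.10 on the log2 scale (limma adjusted p = 2.77e-07), and stayed lower under all 3 other scalings (-1.69 to -1.18 over all alternatives). It then rose by 0.86 ± 0.09 from P7 to P14 (limma adjusted p = 1.65e-05), and the change of 0.07 ± 0.09 to P21 did not pass (95% interval -0.12 to 0.27).

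Pclo encodes Piccolo, the large scaffold related to Bassoon. It stood at 24.4 and 23.8 TPM in input and at 7.01, 12.6 and 11.4 TPM in P7 IP. At P14 it was at 12.0, 11.9 and 12.1 TPM and at P21 at 9.09, 10.7 and 10.9 TPM. Both input libraries were above all IP libraries, replicate 1 of P7 IP was the lowest library, and P7 IP overlapped with both later ages. All P21 libraries were below the P14 libraries. Pclo was lower in P7 IP than in input by -1.18 ± 0.18 (limma adjusted p = 0.000175). Its change from P7 to P14 did not pass (0.24 ± 0.16, adjusted p = 0.259, 95% interval -0.12 to 0.60). That value rested on single libraries: it was 0.0027 without P7 IP replicate 1 and 0.38 without P7 IP replicate 2, and passed in neither case. From P14 to P21 the change did not pass (-0.22 ± 0.16, limma adjusted p = 0.354, 95% interval -0.58 to 0.14). The change from P7 to P21 did not pass either (0.02 ± 0.16, 95% interval -0.34 to 0.38). Without P7 IP replicate 1 the change from P7 to P21 was -0.22 and passed (limma adjusted p = 0.0492).

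Erc2 encodes the ELKS-family protein CAST, a binding partner of RIM, Bassoon and Piccolo. Its libraries stood at 79.6 and 80.2 TPM in input, 79.2, 87.4 and 93.9 TPM in P7 IP, 94.9, 96.6 and 97.4 TPM in P14 IP, and 95.5, 92.2 and 107 TPM in P21 IP. It had the narrowest relative range of the 10 genes, and the P7 IP libraries overlapped with input and with P21. Its change of 0.18 ± 0.07 from P7 to P21 was called (limma adjusted p = 0.0473), but that call was lost in 13 of 21 alternatives. Among these were the omission of any 1 of 9 libraries, with adjusted p from 0.0592 to 0.173; the call was kept without P7 IP replicate 3 or P21 IP replicate 2. The value fell to 0.11 without P7 IP replicate 1 and to 0.11 without P21 IP replicate 3. The change from P7 to P14 (0.15 ± 0.07, adjusted p = 0.0999) passed without P7 IP replicate 3 (0.21, adjusted p = 0.035). Against input Erc2 differed by 0.12 ± 0.08 at P7 (95% interval -0.06 to 0.29), which became 0.52 and passed under median-of-ratios scaling (limma adjusted p = 3.34e-05).

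Rims1 encodes RIM1, which binds Rab3 and Munc13 and recruits calcium channels to release sites. It was at 42.9 and 41.7 TPM in input, 24.5, 30.5 and 33.8 TPM in P7 IP, 73.2, 64.0 and 63.4 TPM in P14 IP and 79.9, 83.9 and 103 TPM in P21 IP. No 2 of these 4 groups overlapped, and the order from lowest to highest was P7 IP, P7 input, P14 IP and P21 IP. Its rise of 1.16 ± 0.12 from P7 to P14 (limma adjusted p = 2.19e-05) was the largest of the 10 genes, and 96.9% of all tested genes had a lower change. A further rise of 0.40 ± 0.12 to P21 was called (limma adjusted p = 0.0324) and rested on single libraries. With P14 IP replicate 2 left out it missed the threshold (adjusted p = 0.0948), as it did with replicate 3 left out (adjusted p = 0.0993), and without P21 IP replicate 2 (adjusted p = 0.0551) or replicate 3 (0.29, adjusted p = 0.103). With no filter on low values it also missed the threshold (adjusted p = 0.102). Over the whole interval Rims1 rose 3.00-fold by mean TPM (1.56 ± 0.12, limma adjusted p = 1.28e-06). It was lower in P7 IP than in input by -0.52 ± 0.14 (limma adjusted p = 0.00595), a call lost with median-of-ratios scaling (-0.11, adjusted p = 0.436).

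Rims2, the gene of the related RIM2 protein, was at 32.3 and 31.8 TPM in input, 24.3, 30.1 and 31.2 TPM in P7 IP, 46.4, 46.1 and 47.5 TPM in P14 IP and 44.2, 43.4 and 52.5 TPM in P21 IP. The P14 and P21 libraries overlapped with each other and were all above the P7 libraries of both kinds. Rims2 rose by 0.70 ± 0.09 from P7 to P14 (limma adjusted p = 0.000133), and its later change of -0.01 ± 0.09 did not pass (95% interval -0.22 to 0.21). Against input its change of -0.17 ± 0.11 did not pass (adjusted p = 0.173), and it turned to 0.23 and passed under median-of-ratios scaling (limma adjusted p = 0.0449).

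Unc13a encodes Munc13-1, the main vesicle priming factor of excitatory forebrain synapses. It was at 61.2 and 57.0 TPM in input, 29.4, 34.1 and 36.6 TPM in P7 IP, 44.3, 45.6 and 45.9 TPM in P14 IP and 42.8, 42.8 and 47.0 TPM in P21 IP. Input was highest, P7 IP lowest and the later ages lay between them, overlapping each other. Unc13a was lower in P7 IP than in input by -0.81 ± 0.08 (limma adjusted p = 1.08e-05), rose by 0.43 ± 0.08 to P14 (limma adjusted p = 0.00077) and changed by -0.03 ± 0.08 to P21, which did not pass (95% interval -0.20 to 0.13).

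Unc13b, which encodes the related priming factor Munc13-2, was at 25.3 and 26.3 TPM in input and at 8.96, 8.37 and 9.69 TPM in P7 IP. It was at 8.57, 9.29 and 10.0 TPM in P14 IP and 6.65, 7.71 and 8.73 TPM in P21 IP. Each pair of ages overlapped, and P21 IP replicates 1 and 2 lay below every P7 and P14 IP library. Its 2.87-fold lower level in P7 IP than in input corresponded to -1.42 ± 0.11 on the log2 scale (limma adjusted p = 1.07e-06). With age it did not pass, at 0.04 ± 0.10 from P7 to P14 (95% interval -0.17 to 0.25) and -0.25 ± 0.10 from P14 to P21 (limma adjusted p = 0.0789). Without P21 IP replicate 3 the change from P14 to P21 was -0.33 and passed (adjusted p = 0.0272), as did that from P7 to P21 (-0.29, adjusted p = 0.0227).

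Of the 3 Rab3 genes, Rab3a and Rab3c rose from P7 to P14 and Rab3b fell. Rab3a, the most abundant Rab3 isoform of brain synapses, was at 624 and 644 TPM in input, 533, 606 and 574 TPM in P7 IP, 898, 876 and 829 TPM in P14 IP and 933, 843 and 877 TPM in P21 IP. Every P14 and P21 library was above every P7 library, and P14 and P21 overlapped. Rab3a rose by 0.60 ± 0.06 from P7 to P14 (limma adjusted p = 1.46e-05), and its change to P21 of 0.03 ± 0.06 did not pass (95% interval -0.10 to 0.16). Against input it differed by -0.15 ± 0.07 at P7 (limma adjusted p = 0.0617); this turned to 0.26 with median-of-ratios scaling (adjusted p = 0.00942) and to -0.46 with quantile normalisation (adjusted p = 0.000412).

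Rab3b encodes a Rab3 isoform known from endocrine cells and some inhibitory synapses. It was at 160 and 150.3 TPM in input and at 137, 150.4 and 131 TPM in P7 IP. At P14 it was at 69.5, 78.5 and 82.3 TPM and at P21 at 38.0, 39.0 and 37.5 TPM. Input and P7 IP overlapped, and no IP age overlapped with another. Rab3b fell by 0.85 on the log2 scale from P7 to P14 (SE 0.07, limma adjusted p = 4.32e-06) and by 0.99 from P14 to P21 (SE 0.07, limma adjusted p = 1.92e-05). By mean TPM it was 3.65-fold lower at P21 than at P7 (-1.84 ± 0.07, limma adjusted p = 1.33e-08), and these 3 calls held under all alternatives tried. Against input its change of -0.16 ± 0.08 did not pass, and it was 0.25 with median-of-ratios scaling (adjusted p = 0.0149) and -0.35 with quantile normalisation (adjusted p = 0.00244).

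Rab3c, a further vesicle-associated isoform, was at 46.2 and 54.4 TPM in input, 25.9, 26.5 and 34.8 TPM in P7 IP, 52.4, 43.2 and 49.0 TPM in P14 IP and 52.5, 48.2 and 56.1 TPM in P21 IP. The P7 IP libraries were the lowest and did not overlap with any other group, while input overlapped with both later ages. Rab3c was lower in P7 IP than in input by -0.78 ± 0.13 (limma adjusted p = 0.000364) and rose by 0.72 ± 0.12 to P14 (limma adjusted p = 0.000515). The change to P21 of 0.12 ± 0.12 did not pass (95% interval -0.15 to 0.38).

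Of the Rab3 transcripts, the share held by Rab3b shrank with age. Summed TPM of Rab3a, Rab3b, Rab3c and the fourth family gene Rab3d was 760 ± 43.2 (SD, n = 3) in P7 IP, 1003 ± 29.3 (SD, n = 3) in P14 IP and 981 ± 46.5 (SD, n = 3) in P21 IP. Rab3a made up 75.1% ± 0.56 (SD, n = 3), 86.5% ± 1.01 (SD, n = 3) and 90.1% ± 0.47 (SD, n = 3) of that sum at the 3 ages. Rab3b made up 18.3% ± 1.05 (SD, n = 3), 7.67% ± 0.87 (SD, n = 3) and 3.90% ± 0.24 (SD, n = 3). Rab3c held between 3.30% and 5.74% in every IP library. Rab3d fell beside Rab3b, from 20.9 TPM at P7 to 10.6 TPM at P14 and 6.48 TPM at P21 (-1.55 ± 0.08 over the whole interval, limma adjusted p = 6.45e-08). In input the shares were 73.8% for Rab3a and 18.1% for Rab3b, close to those of P7 IP.

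**Figure D3:**
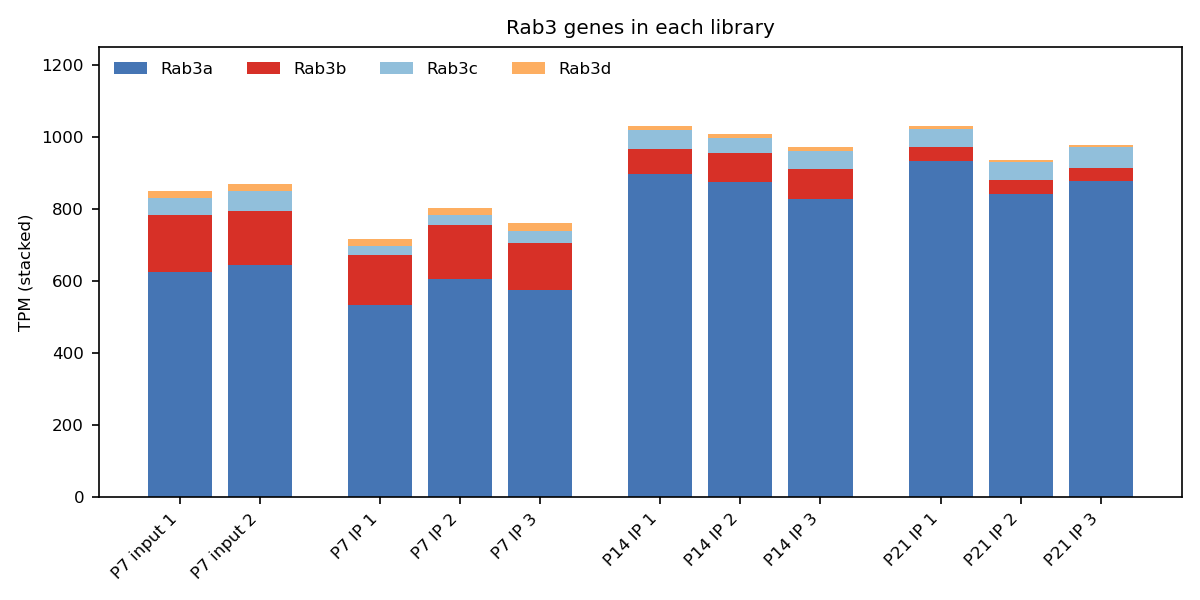
Stacked TPM of Rab3a, Rab3b, Rab3c and Rab3d (vertical axis, from 0) in each of the 11 libraries. The Rab3b segment takes 17.2% to 19.1% of the bar in P7 IP and 3.69% to 4.17% in P21 IP, and the bars are taller at P14 and P21 than in P7 IP.

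The start regions of the 3 Rab3 genes are shown because Rab3b fell with age while Rab3a and Rab3c rose. RefSeq (GRCm38.p6, another build than the mm39 of the deposited values) lists 2 start sites for Rab3a and 1 each for Rab3b and Rab3c; each window holds 300 bases, 5′ to 3′ on the gene's strand, and ends just after the start site. The table held windows for 9 of the 10 genes, all but Rims2. Capitals mark matches, on either strand, to TGACGTCA (a cyclic AMP response element), the E-box CAGCTG bound by many neuronal helix-loop-helix factors, another form of E-box spelled CACGTG, the GC box GGGCGG, the NRF1 motif by its consensus, the TATA box TATAAA, and TTCAGCACC (the left part of the RE1 element). Neighbouring GC box matches can share bases.
Rab3a, first start, chr8:70754453-70754752, plus strand: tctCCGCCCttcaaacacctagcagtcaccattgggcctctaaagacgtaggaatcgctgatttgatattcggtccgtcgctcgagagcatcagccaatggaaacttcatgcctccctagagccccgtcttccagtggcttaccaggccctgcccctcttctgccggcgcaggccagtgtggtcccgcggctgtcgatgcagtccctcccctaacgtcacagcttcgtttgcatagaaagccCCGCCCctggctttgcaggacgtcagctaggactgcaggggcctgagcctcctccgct
Rab3a, second start, chr8:70754852-70755151, plus strand: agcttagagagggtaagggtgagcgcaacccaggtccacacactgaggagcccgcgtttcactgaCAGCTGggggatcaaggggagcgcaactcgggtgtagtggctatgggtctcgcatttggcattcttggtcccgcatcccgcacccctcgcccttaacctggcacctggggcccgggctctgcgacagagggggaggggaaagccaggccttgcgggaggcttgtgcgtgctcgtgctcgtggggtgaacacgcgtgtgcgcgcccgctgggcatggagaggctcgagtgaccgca
Rab3b, chr4:108878820-108879119, plus strand: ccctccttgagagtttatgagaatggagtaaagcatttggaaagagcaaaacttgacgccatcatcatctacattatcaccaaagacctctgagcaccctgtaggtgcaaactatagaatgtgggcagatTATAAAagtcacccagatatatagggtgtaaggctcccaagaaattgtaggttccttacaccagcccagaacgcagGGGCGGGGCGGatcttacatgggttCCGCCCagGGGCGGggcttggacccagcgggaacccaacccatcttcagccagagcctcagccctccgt
Rab3c, chr13:110280157-110280456, minus strand: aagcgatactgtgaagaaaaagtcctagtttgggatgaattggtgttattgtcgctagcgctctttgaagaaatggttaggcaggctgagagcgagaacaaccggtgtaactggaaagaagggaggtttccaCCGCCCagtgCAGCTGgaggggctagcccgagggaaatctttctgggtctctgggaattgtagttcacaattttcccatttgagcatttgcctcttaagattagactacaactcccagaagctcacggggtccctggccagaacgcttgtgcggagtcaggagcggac

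The Rab3b window held 4 GC box matches and 1 TATA box match, and none of the other motifs. The TATA box match lay upstream of all 4 GC box matches, away from the start site at the window's end. Of 32851 RefSeq windows of this length 35.7% held a GC box and 13.6% a TATA box. The first Rab3a window held 2 GC boxes, the second 1 CAGCTG, and the Rab3c window 1 GC box and 1 CAGCTG, a motif in 16.3% of windows. The motifs with no match in the 4 windows were present in 1.79% (cyclic AMP response element), 7.15% (CACGTG), 4.6% (NRF1) and 0.371% (RE1 left part) of all windows. In these 4 windows there were 18, 22, 8 and 11 CpG dinucleotides in the order shown, and the median of all windows was 7. These matches describe letters only, and which start sites were used is not measured by values per gene.

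Family partners were next compared as a ratio of (TPM + 1) within each library. The added 1 TPM leaves a small dependence on scaling for low genes such as Pclo and Unc13b, and other scalings were not tried for the ratios. The pairs were Rab3a over Rab3b, Rab3a over Rab3c, Rims1 over Rims2, Unc13a over Unc13b, Bsn over Pclo, and Erc2 over its family partner Erc1. For each pair the 9 IP libraries were tested over the 3 ages with an exact permutation test (two-sided, on the F statistic), whose smallest possible p here is 0.00357. In 5 of the 6 pairs the ratio differed over the ages at that smallest p (adjusted over the 6 pairs 0.00429, exact permutation test), and in each of those 5 the mean ratio was highest at P21.

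Rab3a over Rab3b changed most. Its log2 ratio was 1.95, 2.00 and 2.13 in P7 IP, 3.67, 3.46 and 3.32 in P14 IP and 4.58, 4.40 and 4.51 in P21 IP, with no overlap between ages. In input it was 1.96 and 2.09, within the range of P7 IP. Erc2 over Erc1 followed, from 1.59 ± 0.04 (SD, n = 3) to 2.08 ± 0.13 (SD, n = 3) and 2.98 ± 0.02 (SD, n = 3). Erc1 fell from 28.1 TPM at P7 to 22.1 TPM at P14 and 11.6 TPM at P21 while Erc2 varied little. Bsn over Pclo went from 0.34 ± 0.26 (SD, n = 3) to 0.97 ± 0.08 (SD, n = 3) and 1.26 ± 0.10 (SD, n = 3), with replicate 1 of P7 IP at 0.63 above its group's other libraries at 0.13 and 0.26.

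For Rims1 over Rims2 the log2 ratio was 0.05 ± 0.06 (SD, n = 3) at P7, close to equal levels, then 0.51 ± 0.12 (SD, n = 3) and 0.91 ± 0.06 (SD, n = 3). Unc13a over Unc13b went from 1.78 ± 0.15 (SD, n = 3) to 2.17 ± 0.08 (SD, n = 3) and 2.38 ± 0.12 (SD, n = 3), after 1.16 ± 0.11 (SD, n = 2) in input. Rab3a over Rab3c did not differ over the ages beyond its spread, at 4.26 ± 0.23 (SD, n = 3), 4.14 ± 0.14 (SD, n = 3) and 4.06 ± 0.10 (SD, n = 3) (exact permutation p = 0.436). All 72 recomputed ratio tests, with other pseudocounts, ages permuted within replicate numbers, or each IP library left out, kept their direction and side of the threshold.

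**Figure D4:**
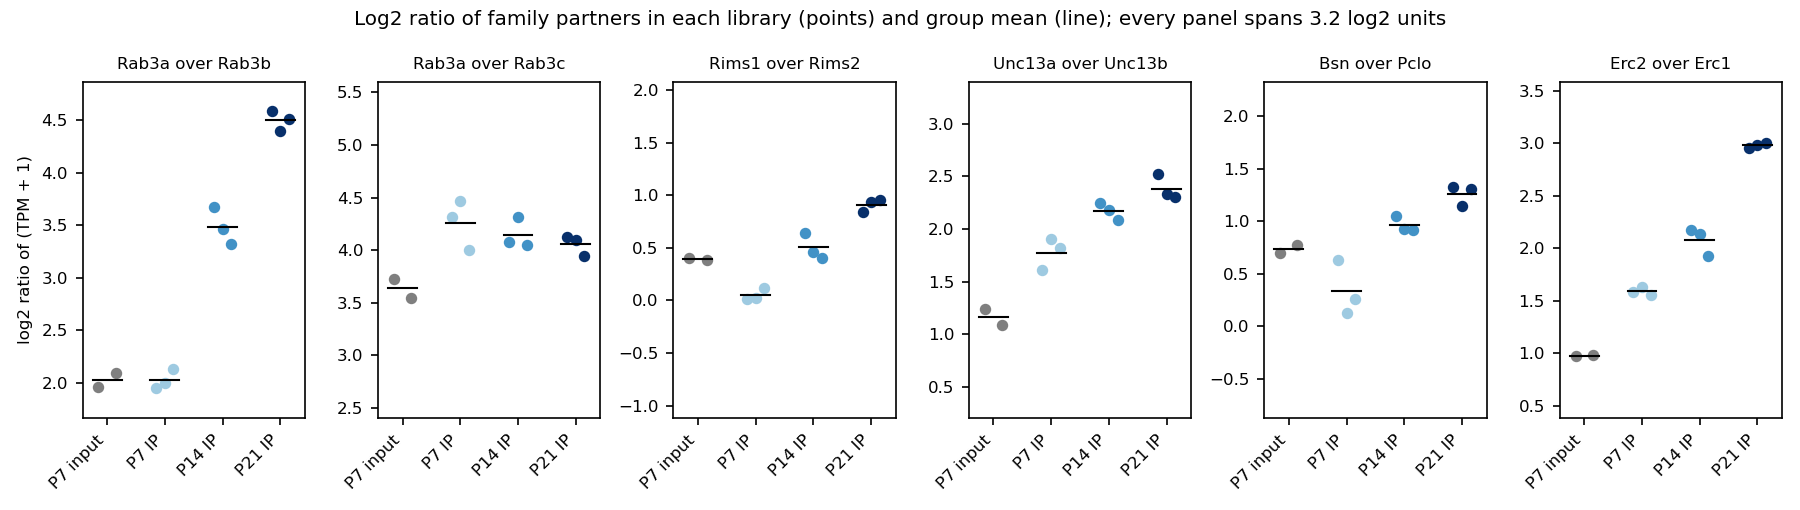
Log2 ratio of (TPM + 1) of 6 pairs of family partners in each library (points) with the group mean (line); every panel spans the same range of log2 units. Rab3a over Rab3b goes from a mean of 2.03 in P7 IP to 4.50 in P21 IP, and Rab3a over Rab3c stays between 3.94 and 4.46 in IP libraries.

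Were the 2 weekly steps alike? The change over P14 to P21 minus the change over P7 to P14 was called lower for 5 of the 10 genes (16.8% of all genes) and higher for 0 (7.46% of all genes; also 0 at an unadjusted p under 0.05, limma). The genes were Bsn (-0.79 ± 0.15, limma adjusted p = 0.00426), Rims1 (-0.76 ± 0.21, adjusted p = 0.0247), Rims2 (-0.71 ± 0.16, adjusted p = 0.0114), Rab3a (-0.58 ± 0.10, adjusted p = 0.00313) and Unc13a (-0.47 ± 0.13, adjusted p = 0.0263). Over all genes the split became 2264 higher and 2046 lower with median-of-ratios scaling, which moved the median by 0.13, and 1976 and 2343 with quantile normalisation, which moved it by 0.11. The rise of these 5 genes was larger in the second postnatal week than in the third. For Rab3b the steps did not differ beyond the test (-0.13 ± 0.12, 95% interval -0.40 to 0.14). The call of Rims1 did not hold when P14 IP replicate 1 was left out (adjusted p = 0.108), nor without its replicate 2 (adjusted p = 0.0557) or P21 IP replicate 2 (adjusted p = 0.051), nor with no filter on low values (adjusted p = 0.0821). That of Unc13a was lost with any 1 of the P14 IP libraries left out (adjusted p = 0.061, 0.0855 and 0.0821 for replicates 1, 2 and 3), with P21 IP replicate 1 (adjusted p = 0.0525) or replicate 2 (adjusted p = 0.0529) left out. Median-of-ratios scaling gave -0.31, which missed the threshold (adjusted p = 0.0718). After quantile normalisation the value was -0.32 and missed it too (adjusted p = 0.0686), as did the unfiltered fit (adjusted p = 0.0722). Without P7 IP replicate 3, Rab3c was also called (-0.73, adjusted p = 0.01).

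Beside the 10 genes, 22 other active zone genes were read from a list of scaffold, liprin, RIM-binding, priming and adaptor genes. Their changes with age went both ways. From P7 to P14, 7 of 22 rose and 8 fell, with a median of -0.01 against 0.03 over all genes. Of all tested genes 26.7% were called higher and 22.8% lower in that comparison. The RIM-binding protein gene Rimbp2 went from 43.3 to 88.6 TPM (1.01 ± 0.09, limma adjusted p = 6.5e-06), the adaptor gene Lin7a from 7.43 to 16.3 TPM and the priming factor gene Cadps2 from 15.3 to 26.0 TPM. Lin7c, a paralog of Lin7a, fell from 72.0 to 30.6 TPM (-1.21 ± 0.08, limma adjusted p = 1.01e-06), Rab3d fell as given above, and Rims3 fell from 37.8 to 22.5 TPM.

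From P14 to P21, 3 of the 22 rose and 8 fell (median -0.16 against -0.08), and with median-of-ratios scaling 5 rose and 6 fell. Over all tested genes 8.53% were called higher and 19.7% lower. Rims3, which encodes a short RIM protein, returned to 42.0 TPM (0.86 ± 0.12, limma adjusted p = 0.000736). Git1, whose product binds Piccolo, rose from 101 to 168 TPM, and the liprin gene Ppfia3 from 80.0 to 102 TPM. Erc1 (-0.87 ± 0.09), Rab3d (-0.64 ± 0.08) and Apba1 (-0.46 ± 0.09), the gene of the Munc18-binding adaptor Mint1, had the largest falls. Over the whole interval 7 of the 22 rose and 9 fell, next to 27.3% and 32.6% of all tested genes. Between P7 IP and input 3 were higher and 15 lower (18.6% and 51.1% of all tested genes), or 7 and 8 with median-of-ratios scaling. The co-repressor gene Ctbp1 was higher by 0.61 ± 0.06 and the liprin gene Ppfia1 lower by -1.41 ± 0.15. The weekly steps differed for 10 of the 22 (24.3% of all tested genes), with Rims3 (1.59 ± 0.22) and Rimbp2 (-1.18 ± 0.15) at the ends. Of these 3 were higher and 7 lower (7.46% and 16.8% of all tested genes). The split was 6 and 5 with median-of-ratios scaling and 4 and 4 with quantile normalisation. Without P14 IP replicate 2 the steps differed for 6 of the 22.

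A second list held 16 regulators and effectors of the Rab3 cycle, of which 14 passed the filter on low values; Sytl4 and Sytl5 did not, and were below 1 TPM in every library. From P7 to P14, 5 rose and 4 fell (median 0.02), or 4 and 5 with each of the other 3 scalings. Beside these, 26.7% of all tested genes were called higher and 22.8% lower. Rph3a, the gene of the Rab3 effector rabphilin, went from 73.5 to 160 TPM (1.11 ± 0.08, limma adjusted p = 1.97e-06) and on to 222 TPM at P21 (0.47 ± 0.08, limma adjusted p = 0.00207). Rab3gap1, the catalytic subunit of the GTPase-activating protein for Rab3, went from 14.2 to 29.3 TPM (1.00 ± 0.06, limma adjusted p = 6.77e-07), and its partner subunit Rab3gap2 by 0.31 ± 0.09 (limma adjusted p = 0.0114). Madd, an exchange factor for Rab3, rose by 0.52 ± 0.08.

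Doc2a and Doc2b, calcium-binding proteins with rabphilin-like domains, fell over the same week from 88.0 to 44.8 TPM and from 48.2 to 26.0 TPM, and Rab3il1 fell by 0.61 on the log2 scale. From P14 to P21, 1 of the 14 (Rph3a) rose and 5 fell, next to 8.53% and 19.7% of all tested genes. The split was 3 and 3 with median-of-ratios scaling and 3 and 4 with quantile normalisation. It was 2 and 5 after removal of mitochondrial, haemoglobin and ribosomal protein genes. Doc2b (-0.46 ± 0.06), the GDP dissociation inhibitor gene Gdi2 (-0.31 ± 0.05) and Rabif (-0.30 ± 0.06) fell most over that week. The number that rose was 2 when P7 IP replicate 2, P14 IP replicate 2 or P21 IP replicate 2 was left out. Over the whole interval 4 rose and 8 fell (27.3% and 32.6% of all tested genes), or 5 and 5 with median-of-ratios scaling. The number that fell was 5 without P7 IP replicate 1, P7 IP replicate 3 or P21 IP replicate 2. In P7 IP against input 3 were higher and 8 lower (18.6% and 51.1% of all tested genes), or 7 and 4 with median-of-ratios scaling. Rabif (0.60 ± 0.07) and Rab3ip (0.54 ± 0.07) were at 1 end and Madd (-1.13 ± 0.08) at the other.

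**Figure D5:**
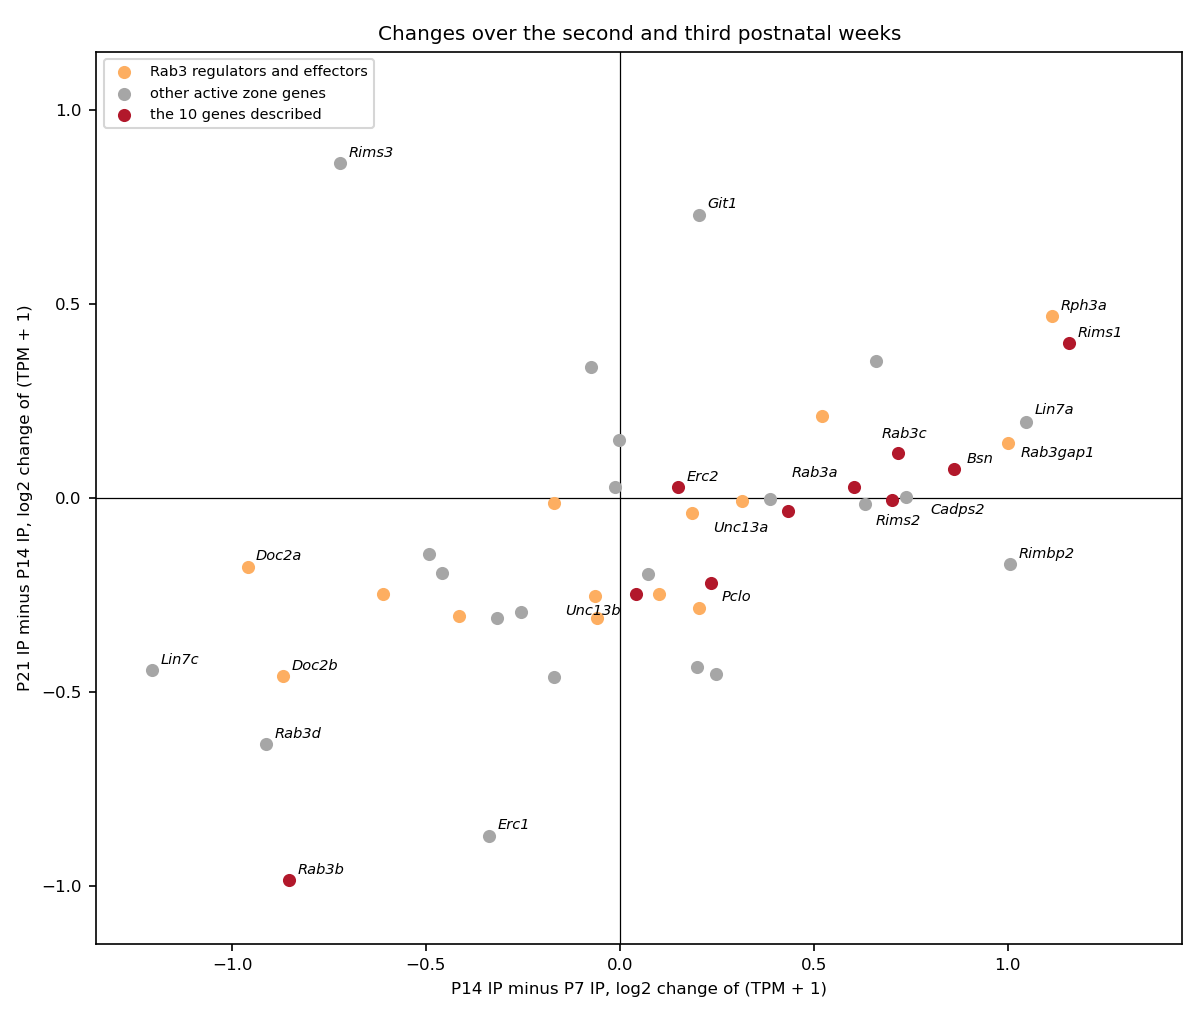
Log2 change of (TPM + 1) from P7 to P14 IP (horizontal) and from P14 to P21 IP (vertical) for the 10 genes (red), 22 other active zone genes (grey) and 14 Rab3 regulators and effectors (orange); each point is a gene, and both axes use the P14 libraries. Rab3b lies at -0.85 and -0.99, Rims1 at 1.16 and 0.40 next to Rph3a at 1.11 and 0.47, and Rims3 at -0.72 and 0.86.

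Genes with a profile most like each of the 10 were found among 9778 genes by the root mean square difference of log2 values over the 11 libraries, after each gene's own mean was subtracted. For Rab3b the nearest included Arxes1 (0.078) and Prss35 (0.11). Of the 10 genes the nearest to Rab3b was Unc13b, in place 2723 of the ranking. Rims1 was most like Kcnh1 (0.085), Dlgap1 (0.091) and Rph3a (0.099), and the genes nearest to Bsn included Zscan26 (0.10) and Prex1 (0.11). Rab3a was most like Mpv17 (0.037), Kif1bp (0.05) and Atp6v0c (0.051), and Rab3c most like Prkca (0.089), Cplx2 (0.09) and Synj1 (0.092).

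For Rims2 the nearest included Chp1 (0.054) and Zfr (0.057), and for Erc2 they were Rragd (0.035), Arl1 (0.055) and Proz (0.055). The genes nearest to Unc13a included Aplp2 (0.06) and Dync1li2 (0.063). Unc13b was most like Kmt2c (0.046), Atrx (0.081) and Zkscan3 (0.086), and Pclo like Scyl3 (0.12), Dbn1 (0.13) and Gprasp1 (0.13). Within the 10 genes the closest pair was Rab3a with Rims2 (0.10), and the farthest Rab3b with Rims1 (1.39).

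Markers of other cells were read in the same libraries. Summed TPM of 12 inhibitory neuron markers was 1126 to 1250 in input and 148 to 162 in P7 IP, 128 to 143 in P14 IP and 130 to 157 in P21 IP; all 12 were lower in P7 IP than in input, and 4 rose and 3 fell from P7 to P14. Astrocyte markers summed to 660 to 722 TPM in input, 41.9 to 63.2 in P7 IP, 113 to 132 in P14 IP and 145 to 180 in P21 IP. Oligodendrocyte markers summed to 198 to 267 TPM in input, 32.3 to 36.3 in P7 IP, 305 to 413 in P14 IP and 524 to 754 in P21 IP. All 8 astrocyte and all 8 oligodendrocyte markers were lower in P7 IP than in input, and 7 and 8 of them rose from P7 to P14. Among all tested genes 51.1% were lower in P7 IP than in input. From P7 to P14 26.7% of all tested genes rose and 22.8% fell. Oligodendrocyte precursor markers (6 genes) went from between 16.2 and 19.8 TPM in P7 IP to between 26.4 and 37.3 in P21 IP and microglial markers (8 genes) from between 10.1 and 14.2 to between 30.8 and 38.6. Those of endothelial and mural cells (8 genes) were at 18.6 to 27.9 TPM in P7 IP and 17.1 to 28.9 in P21 IP. In input the precursor markers summed to 206 to 234 TPM and the microglial markers to 149 to 188 TPM. Endothelial and mural markers summed to 205 to 228 TPM there. Markers of excitatory neurons (8 genes) summed to 1113 to 1230 TPM in input, 1126 to 1361 in P7 IP, 2652 to 2877 in P14 IP and 3090 to 3287 in P21 IP. No marker was at 0 in any library, and the part of these cells in the changes of the 10 genes was not tested.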

How the data were processed

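RNA was sequenced from 9 IP and 2 input libraries. The authors deposited 1 table of TPM values per Ensembl gene, with a column for each library. The submitters' processing notes name fastp 1.0.1, Salmon 1.10.0, DESeq2 1.46.0 and build mm39; the role of each, the annotation and the use of strand were not given in the sources used here. Since depth cannot be read from TPM, no counting interval is given. Columns were matched to samples by name, and 50886 of 77179 identifiers carried a symbol.

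The 19008 genes that reached 1 TPM in 2 or more libraries entered a limma 3.58.1 fit (R 4.3.3) of log2(TPM + 1). The model had 1 mean for each group, used all 11 libraries (leaving 7 residual degrees of freedom) and a trended prior, and p-values were adjusted by Benjamini-Hochberg over all genes; intervals are at 95%. Ratios were tested by exact permutation (Python 3.11.15). The code was tested on simulated data. The 10 genes, the companion and marker lists, the pairs and the tests were chosen with earlier results of these data known. Genes of the companion lists were named if among the 3 largest rises or falls called in a comparison, and the 3 most alike genes of each member came from genes averaging 5 TPM or more; some of these are not reported here. Rab3gap2 and, for its ratio to Erc2, Erc1 were named as partners, Rab3gap2 after its values were seen.

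As alternatives, pseudocounts of 0.1 and 5 TPM were tried, no filter or a minimum average of 5 TPM, scaling by median of ratios, by quantiles, or after removal of mitochondrial, haemoglobin and ribosomal protein genes, an untrended prior, a block for the replicate number, fits of only the groups compared, and omission of each library. Motifs were searched on both strands of RefSeq windows. Figures were drawn with matplotlib 3.10.9.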

Additional observations from a re-analysis of the deposited data

Results flagged for a closer look

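For 5 of the 10 genes the change over the third postnatal week differed from that over the second, by the limma test of the difference itself, next to 16.8% of all tested genes called lower and 24.3% called either way. The log2 change from P14 to P21 minus that from P7 to P14 was -0.58 for Rab3a, -0.79 for Bsn, -0.76 for Rims1, -0.71 for Rims2 and -0.47 for Unc13a. The call of Rims1 was lost in 4 and that of Unc13a in 8 of 21 alternatives, and the number of genes called fell to 3 with no filter on low values or without P14 IP replicate 1, P14 IP replicate 2 or P21 IP replicate 2. In each case the rise to P14 was larger than the change that followed. Both steps use the P14 libraries. The groups held 2 or 3 libraries, too few to test single libraries as outliers.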

How the results depend on the processing

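Of 1050 recomputed changes of single genes (50 results under 21 settings), 978 kept direction and side of the threshold. With the direction kept, 31 lost their call and 18 gained one. A further 23 changed sign, and some of these also gained a call. The rise of Bsn, Rab3a, Rab3c, Rims1, Rims2 and Unc13a from P7 to P14 held in all 21 settings. So did the falls of Rab3b, and the lower level of Bsn, Pclo, Rab3c, Unc13a and Unc13b in P7 IP than in input. The depth is unknown, so limits set by depth cannot be given.

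With median-of-ratios scaling 4 of the 10 genes were higher in P7 IP than in input: Rab3a (0.26), Rab3b (0.25), Rims2 (0.23) and Erc2. Under it 6257 and 5802 genes were higher and lower in that comparison, 2744 and 2269 from P14 to P21, and 2264 and 2046 for the second step against the first. Sign changes under it of uncalled values were Unc13b from P7 to P14 (-0.0023), Rims2 (0.11) and Unc13a (0.082) from P14 to P21, and Rab3b (0.032) and Erc2 (0.044) between steps. With quantile normalisation 0 of the 10 genes were higher and 8 lower in P7 IP than in input. Over all genes 6256 and 6025 were higher and lower there, and 2290 and 2662 from P14 to P21. Unc13a lost its call between steps (-0.32, limma adjusted p = 0.0686). Rims2 turned to 0.082 in P7 IP. From P14 to P21 Rims2 turned to 0.082 and Unc13a to 0.053. Without mitochondrial, haemoglobin and ribosomal protein genes Rims2 turned to 0.00705 there. With the filter set to a mean of at least 5 TPM, 5421 genes were lower in P7 IP. With no filter 1 of the 10 genes was called from P14 to P21 (0 higher), and 3 differed between steps (3 lower). The cause of these differences between settings was not tested.

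With each library left out in turn, 1 to 2 of the 10 genes were called from P14 to P21 (0 to 1 higher and 1 to 2 lower), 1 to 2 were lower from P7 to P21, and 3 to 6 differed between steps (3 to 6 lower), as did 6 to 11 other active zone genes, 3 to 7 Rab3 cycle genes, and 870 to 1364 higher and 2064 to 3343 lower genes in all (870 without P14 IP replicate 1, 2064 without P14 IP replicate 2). The sign of uncalled values changed for Unc13b from P7 to P14 (-0.0101 to 0.0936). It also changed for Rab3a (-0.012 to 0.061), Rims2 (-0.0898 to 0.0438) and Erc2 (-0.037 to 0.073) from P14 to P21. For Pclo from P7 to P21 the sign changed too (-0.22 to 0.16). The Pclo value of -0.22, without P7 IP replicate 1, was called (limma adjusted p = 0.0492).

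The labels do not say that a replicate number marks related animals, and libraries were not taken as paired. The correlation of same-numbered libraries, as deviations from group means, was 0.012 to 0.177 over 9 pairs (mean 0.049). For the 18 pairs with different numbers it was -0.123 to 0.102 (mean -0.025). A library correlated best with its own number in 9 of 18 cases. With the replicate block 2 of the 10 genes were lower from P14 to P21 and 2 from P7 to P21, as Unc13b was also called (-0.25, adjusted p = 0.0279, and -0.21, adjusted p = 0.0288). The block also gave calls of Erc2 from P7 to P14 (0.15, adjusted p = 0.0472), Rims2 in P7 IP (-0.23, adjusted p = 0.0493) and Rab3c between steps (-0.60, adjusted p = 0.0415).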
